A study of Homo sapiens with 12 samples.

Results

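The comparison covered 4 of the 12 libraries of the series: 2 libraries of a p53 knockout and 2 of the construct used as its control, chosen by their labels and by no measured value. The cells were LMSU, a human gastric cancer line labelled with the p53 mutation R175H. The knockout group holds the construct sg-1 and the control group the construct V2. Both constructs are labelled GFP, and neither group received doxycycline. The labels mark the variant as present in the control and as absent in the knockout. They give neither the guide sequence nor whether the knockout is 1 clone, and no source states separate cultures for the libraries within a group, so the p-values measure only the spread between these libraries, which may be technical. The other 8 libraries form a knockdown arm of the same line, all with doxycycline: a scramble hairpin, a group labelled vector, and hairpins shRNA-1 and shRNA-2 against p53, with 2 libraries each.

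p53 is a transcription factor that holds back division and triggers cell death after damage, in part by switching on genes such as CDKN1A, MDM2 and BAX. R175H is a common change in its DNA-binding part that removes most of this activity and leaves a stable mutant protein. Decorin (DCN) is a small leucine-rich proteoglycan that binds collagen fibrils and TGF-beta, and MARCKS is a membrane-bound substrate of protein kinase C that binds actin and calmodulin.

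Total counts were 13666562 and 10351171 in control libraries 1 and 2, and 11998608 and 13538425 in knockout libraries 1 and 2. The 2 control libraries stood apart from each other: the SD over genes of their log2 ratio was 0.420, against 0.235 between the 2 knockout libraries, over 10517 genes with a mean of at least 5 CPM (counts scaled to the depth of the library). The same SD was also taken over the genes with a mean of at least 5 CPM in the 12 libraries. It was 0.422 in the control, 0.239 in the knockout and 0.134 to 0.168 in the 4 groups of the knockdown arm. For this reason each result is given for all 4 pairs of 1 knockout and 1 control library, as a log2 ratio of CPM in the order knockout 1 over control 1, knockout 1 over control 2, knockout 2 over control 1 and knockout 2 over control 2.

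The defining markers of the labelled tissue were largely absent. EPCAM and CDH1, the adhesion molecules of epithelial cells, reached at most 2 and 1 counts in a library, and KRT19 at most 3. The keratins KRT8 and KRT18 were present, at 71.6 to 103.9 and 207 to 289 CPM. Fibroblast markers were detected in all 4 libraries at uneven levels: COL1A1, a chain of type I collagen, lay between 1598 and 1989 CPM and FAP, a surface protease, between 6.27 and 10.2 CPM, and the summed level of 9 such markers was 3679 and 3435 CPM in the control and 4187 and 4289 CPM in the knockout. Of 4 endothelial markers the sum was 0.821 to 1.08 CPM, with CDH5 at 0 counts in every library. Among 5 leukocyte markers CD3E was at 0, PTPRC was at most 0.191 CPM, and CD68, a lysosomal protein not limited to leukocytes, made up nearly all of the summed 210 to 326 CPM. The part of these cell markers in the results below was not tested.

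With the spread taken from the 4 libraries, 0 of 12776 genes (0%) were called by edgeR's quasi-likelihood test at an adjusted p below 0.05, and 189 had an unadjusted p below that level. With the spread pooled over all 12 libraries, 2 of 13365 genes (0.015%) were called, DCN among them, and 859 passed unadjusted. The biological coefficient of variation was 15.6% over the 4 libraries and 9.55% over the 12, so the pooled fit used a smaller spread than this comparison showed. Without control 2 the 4-library edgeR fit called 993 genes, without control 1 it called 3, and it called 1 gene without knockout 1 and 1 without knockout 2. Both knockout libraries lay above both controls for 1508 genes (11.8%) and below both for 1503 (11.8%). A ratio of at least 1.5-fold in every pair was found for 36 genes (0.282%) upward and 22 (0.172%) downward. These 4 shares are the background for the counts that follow.

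DCN was among the most even of the higher genes over the library pairs. Its level was 37.4 and 35.6 CPM in the control libraries and 58.0 and 61.0 CPM in the knockout libraries, or 36.5 ± 1.25 against 59.5 ± 2.11 (SD, n = 2 each). Both knockout libraries lay well above both controls, and the 4 pairs gave log2 ratios of 0.63, 0.70, 0.70 and 0.77. The fold change was 1.63, or 0.70 on the log2 scale (SE 0.153). The edgeR test gave an adjusted p of 0.998 over the 4 libraries and of 0.0375 over the 12. Lumican (LUM), a proteoglycan of the same family that orders collagen fibrils, is the neighbour of DCN on chromosome 12 in RefSeq (GRCh38.p14). LUM measured 61.4 and 74.1 CPM in the control and 102.4 and 98.3 CPM in the knockout. Its pairs were 0.74, 0.47, 0.68 and 0.41, all above 0, and its adjusted p by edgeR was 0.998 in the 4-library fit and 0.0679 in the 12-library fit. Biglycan (BGN), the third member with enough counts, was near the limit of detection at 7 to 16 counts a library, with pairs of 0.71, 0.85, 0.31 and 0.44. Thus 3 of the 3 tested members of this family of 12 listed genes were above both controls, with a median log2 fold change of 0.67, against 0.00 over all genes tested.

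**Figure D1:**
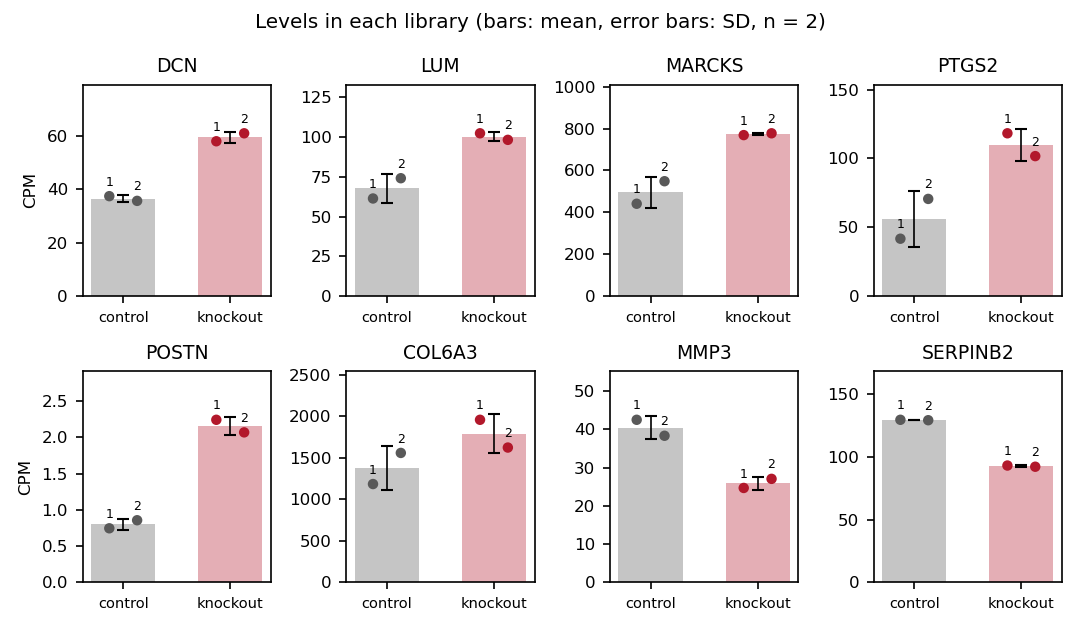
Levels in CPM (y axis, from 0) of 8 genes in the control and the knockout group; points are libraries 1 and 2, bars the mean and error bars the SD (n = 2). DCN, LUM, MARCKS, PTGS2, POSTN and COL6A3 are higher in both knockout libraries than in both controls, and MMP3 and SERPINB2 are lower, as in 129 and 129 against 93.0 and 92.1 CPM for SERPINB2.

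MARCKS was at 441 and 548 CPM in the control and at 769 and 777 CPM in the knockout. The knockout libraries agreed closely (773 ± 6.13, SD, n = 2) and the controls did not (494 ± 76.2, n = 2), so the pairs fell into those with control 1, at 0.80 and 0.82, and those with control 2, at 0.49 and 0.50. The log2 fold change was 0.64 (SE 0.160), with an edgeR adjusted p of 0.998 over 4 libraries and 0.0679 over 12. The other genes around MARCKS did not share this pattern. Of 18 tested genes of its family, of the protein kinase C group and of actin linkers, 1 was above both controls (5.56%), MARCKS itself, and 4 were below (22.2%), with a median of -0.05. MARCKSL1, its close relative, had pairs of -0.41, -0.15, 0.01 and 0.27, and ACTN4, an actin cross-linker, -0.18, -0.02, -0.23 and -0.07.

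The windows of 250 bases before the start are shown for 3 genes picked by hand from those above both controls. The genes are MARCKS, PTGS2 (the inducible cyclooxygenase that starts prostaglandin synthesis) and POSTN (periostin, a matrix protein of fibroblasts). The windows are RefSeq sequences (GRCh38.p14), written 5′ to 3′ on the strand of the gene. Capitals mark every match of the CCAAT box (CCAAT), the TATA box (TATAAA) and the C/EBP consensus (TTNNGNAA), each searched on both strands, and no 2 matches overlap.
MARCKS, chr6:113857095-113857344, plus strand: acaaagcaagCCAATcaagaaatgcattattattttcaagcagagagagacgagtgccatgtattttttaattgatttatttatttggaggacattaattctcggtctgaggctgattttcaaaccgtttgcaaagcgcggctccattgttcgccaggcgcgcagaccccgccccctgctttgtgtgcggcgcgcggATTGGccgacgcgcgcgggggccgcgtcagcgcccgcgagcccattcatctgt
PTGS2, chr1:186680424-186680673, minus strand: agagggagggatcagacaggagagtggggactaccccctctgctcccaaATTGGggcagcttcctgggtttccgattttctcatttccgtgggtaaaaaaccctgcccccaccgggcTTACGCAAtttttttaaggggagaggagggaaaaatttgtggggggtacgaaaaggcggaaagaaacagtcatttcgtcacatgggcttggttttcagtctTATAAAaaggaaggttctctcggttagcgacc
POSTN, chr13:37598769-37599018, minus strand: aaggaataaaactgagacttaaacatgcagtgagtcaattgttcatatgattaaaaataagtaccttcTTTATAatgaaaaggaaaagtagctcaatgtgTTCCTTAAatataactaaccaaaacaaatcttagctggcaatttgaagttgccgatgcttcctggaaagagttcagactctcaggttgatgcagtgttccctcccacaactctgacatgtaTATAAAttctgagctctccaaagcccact
Over 27305 RefSeq windows of the same 250 bases, 33.0% held CCAAT, 11.1% TATAAA and 33.6% TTNNGNAA. Of the 12 named genes with the highest smallest pair, 10 had a window, and 5 of these held CCAAT, 1 TATAAA and 2 TTNNGNAA. PTGS2 is among these 10, while MARCKS and POSTN are not. A p53 half-site stood in 2 of the 10 and in 5.53% of all windows, and an AP-1 match (TGANTCA) in 1 of the 10 and in 6.60% of all. The GC box (GGGCGG) stood in 7 of the 10 and in 42.3% of all. Of the named genes below both controls 6 had a window. Among these, 1 held CCAAT, 1 TATAAA, 2 TTNNGNAA, 1 a p53 half-site, 1 an AP-1 match and 3 a GC box. A match describes the letters only.

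The collagen genes lay mostly above the controls by small amounts. Of 17 tested, 9 were higher in all pairs (52.9%, against 11.8% of all genes) and 2 lower (11.8%), with a median log2 fold change of 0.13. COL5A1, which starts fibril assembly, was at 412 and 445 CPM in the control and 585 and 552 CPM in the knockout (pairs 0.50, 0.39, 0.42 and 0.31). COL3A1, of the fine fibrils of soft tissue, was at 374 and 355 CPM against 476 and 458 CPM (0.35, 0.43, 0.29 and 0.37). COL6A3, of the beaded filaments around cells, was at 1184 and 1559 CPM against 1958 and 1624 CPM, and its last pair, 0.06, was near 0. Of 16 tested genes that modify and cross-link collagen, 1 was higher in all pairs (P4HA1, at 0.01 in its smallest pair) and 2 were lower, with a median of -0.01. Their pair medians, -0.22, 0.06, -0.08 and 0.20, changed sign with the control library, so no direction can be given for this list. LOXL2, a cross-linking oxidase, had pairs of -0.28, -0.17, -0.20 and -0.09.

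Among 19 matrix glycoproteins, 10 were above both controls (52.6%) and 1 below (5.26%), with a median of 0.22. POSTN had the largest fold change of the named members, 2.68, but on 9 and 10 counts in the control and 27 and 28 in the knockout. FBLN2, an elastic fibre protein, was at 29.1 and 25.2 CPM against 38.9 and 38.2 CPM (pairs 0.42, 0.62, 0.39 and 0.60). Thrombospondin 1 (THBS1), which activates latent TGF-beta, was at 279 and 348 CPM against 475 and 402 CPM, and THBS2 had pairs of 0.76, 0.41, 0.51 and 0.16. Fibronectin (FN1) depended on the pair, at 0.94, 0.43, 0.56 and 0.05.

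Of 16 tested fibroblast markers, 11 were above both controls (68.8%) and 1 below (6.25%), with a median of 0.29. They include DCN, LUM, POSTN and 4 of the collagens, so this count is not separate from those above. PDGFRA, a growth factor receptor of mesenchymal cells, had pairs of 0.89, 0.45, 0.62 and 0.18. VIM, the intermediate filament of mesenchymal cells, went the other way, at 10074 and 8288 CPM in the control and 7632 and 7924 CPM in the knockout. Of 15 transcription factors and genes of the epithelial to mesenchymal transition, 4 were above (26.7%) and 2 below (13.3%). Their pair medians, 0.21, 0.02, 0.08 and -0.06, changed sign, so no direction can be given for this list. TWIST1, a transcription factor of that transition, had pairs of 0.21, 0.46, 0.29 and 0.53. Of 11 tested epithelial genes 0 were above and 2 below (18.2%), and their pair medians, -0.39, 0.01, -0.36 and -0.09, changed sign. KRT7, a simple-epithelium keratin, was at 7.76 and 6.48 CPM against 5.15 and 3.99 CPM. Fewer cells of a type and less RNA per cell cannot be told apart in these bulk libraries.

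**Figure D2:**
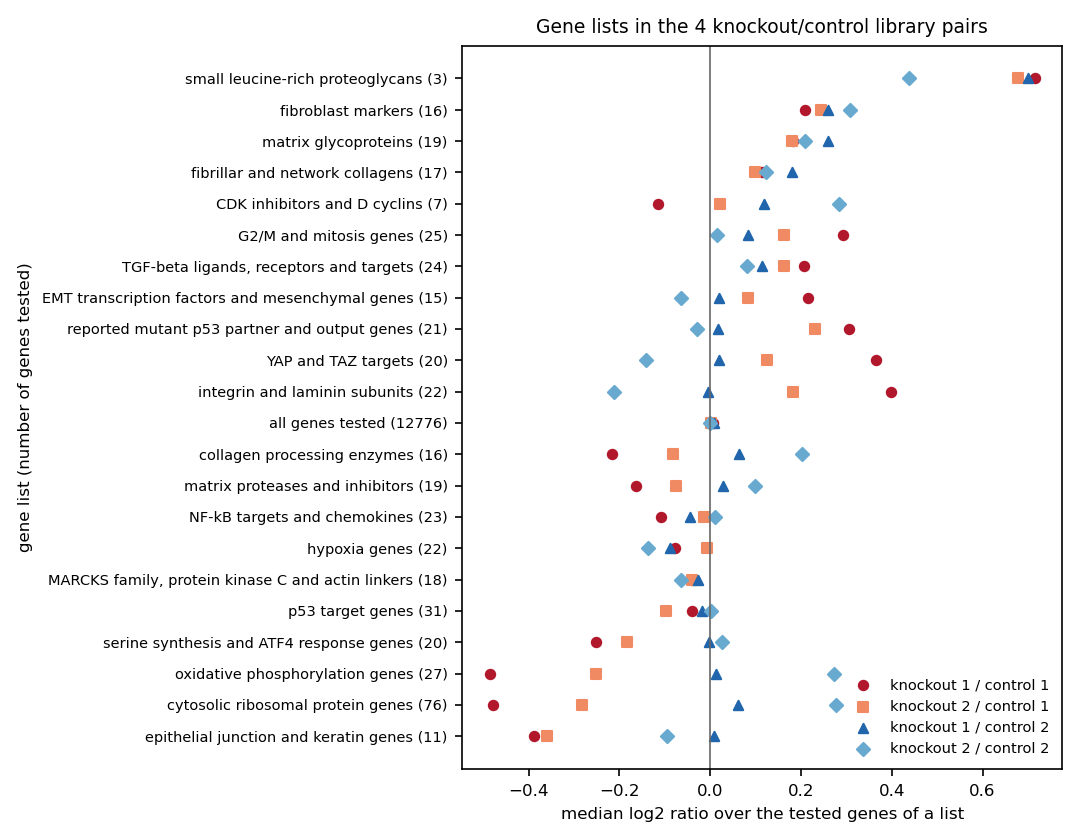
Median log2 ratio (x axis) over the tested genes of each list (y axis, number tested in brackets) in each of the 4 library pairs. The proteoglycan, fibroblast, glycoprotein and collagen lists have all 4 medians above 0, while ribosomal protein and oxidative phosphorylation genes range from -0.48 and -0.49 to 0.28 and 0.27 with the pair.

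Of 24 tested TGF-beta ligands, receptors and targets, 10 were above both controls (41.7%) and 1 below (4.17%), with a median of 0.11. BAMBI, a decoy receptor of the pathway, was at 8.21 and 6.96 CPM against 11.1 and 10.6 CPM (pairs 0.43, 0.67, 0.37 and 0.60). ID2, an inhibitor of differentiation factors, had pairs of 0.33, 0.27, 0.38 and 0.32, and the ligand TGFB2 0.85, 0.30, 0.59 and 0.04. Among 20 YAP and TAZ targets 5 were above (25%) and 3 below (15%). Their pair medians, 0.37, 0.02, 0.12 and -0.14, changed sign, so no direction can be given for this list. F3, tissue factor, the starter of clotting, was at 104 and 121 CPM against 168 and 162 CPM, with an edgeR adjusted p of 0.998 over 4 libraries and 0.0679 over 12. The coactivator WWTR1 (TAZ) had pairs of 0.41, 0.29, 0.35 and 0.22.

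Matrix proteases and their inhibitors lay on both sides. Of 19 tested proteases and inhibitors 3 were above both controls and 5 below (26.3%). MMP3, stromelysin, was at 42.5 and 38.3 CPM in the control and 24.7 and 27.0 CPM in the knockout, with pairs of -0.78, -0.63, -0.65 and -0.50. MMP1, the interstitial collagenase, had pairs of -0.36, -0.29, -0.38 and -0.31, and MMP15 -0.63, -0.65, -0.42 and -0.44. The inhibitor TIMP3 was higher, at 120 and 131 CPM against 156 and 149 CPM. SERPINB2, an inhibitor of plasminogen activators, showed the most even difference of all named genes, with pairs of -0.48, -0.47, -0.49 and -0.49 and a log2 fold change of -0.48 (SE 0.141).

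The genes with the largest smallest pair upward were PCDH18, ERC2, TRIB2, IL13RA2, TXNDC5, BMF, PDGFD, DCN, FGF7, CELF2, PTGS2 and TLR3. PCDH18, a protocadherin, was at 2.16 and 2.76 CPM against 8.14 and 5.10 CPM, from 29 counts in each control and 98 and 69 in the knockout. IL13RA2, a decoy receptor for interleukin 13, was at 9.48 and 10.3 CPM against 17.1 and 18.1 CPM. PDGFD, a ligand of the PDGF beta receptor, was at 8.81 and 9.81 CPM against 19.2 and 15.8 CPM. TRIB2, a pseudokinase, had close pairs, from 0.73 to 0.85. FGF7, a growth factor that fibroblasts make for epithelium, had pairs of 1.26, 0.74, 1.10 and 0.57. It had 33 and 38 counts in the control and 74 in each knockout library. PTGS2 was at 41.6 and 70.5 CPM in the control and 118.2 and 101.6 CPM in the knockout. Apart from DCN and PTGS2, the upward genes reached at most 19.2 CPM in a library, so they rest on few reads. PCDH18, BMF, FGF7 and TLR3 reached the floor of 5 CPM for naming only through their mean in the knockout. The rule chose these genes for groups that do not overlap. Their log2 ratio of control 1 to control 2 was -0.76 for PTGS2, -0.65 for CELF2, -0.59 for TLR3 and -0.53 for FGF7. It was negative too, from -0.33 to -0.01, for PCDH18, PDGFD, IL13RA2, TRIB2 and ERC2. It was positive for TXNDC5 (0.60), BMF (0.18) and DCN (0.07). CEBPB, a transcription factor of inflammatory and stress responses, was at 152 and 161 CPM against 226 and 255 CPM, with an edgeR adjusted p of 0.998 over 4 libraries and 0.0679 over 12.

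The genes with the largest smallest pair downward were TMEM246, C22orf34, ERICH1, MMP3, LZTS3, EPDR1, PROSER2, PEAR1, SERPINB2, DTX4 and APBB3. TMEM246 was at 6.94 and 6.10 CPM against 3.49 and 3.33 CPM. PEAR1, a platelet and endothelial receptor, was at 8.29 and 9.72 CPM against 5.81 and 5.91 CPM. DTX4, a ubiquitin ligase linked to Notch, had pairs of -0.47, -0.47, -0.52 and -0.52. Apart from MMP3 and SERPINB2 these genes lay below 15 CPM in every library, so they rest on few reads. TMEM246, C22orf34, ERICH1, PROSER2 and DTX4 reached the floor of 5 CPM only through their mean in the control.

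**Figure D3:**
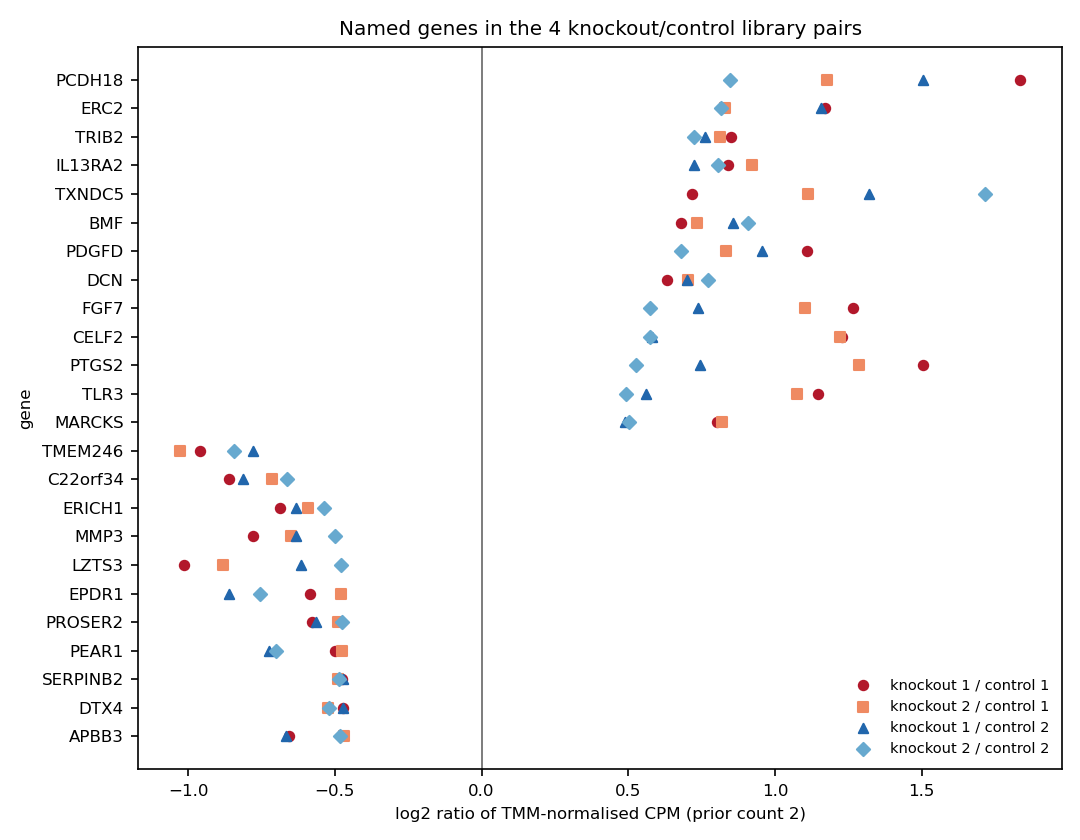
Log2 ratio of CPM (x axis) in the 4 library pairs for the named genes and MARCKS (y axis). The genes above and below were chosen for points on one side of 0; DCN and SERPINB2 have tight points and PTGS2 and CELF2 split by control library.

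Textbook p53 targets lay on both sides of the controls. Of 31 tested, 4 were above both controls (12.9%) and 6 below (19.4%), against 11.8% each over all genes, and the median log2 fold change was -0.05. GADD45A, a stress gene of growth arrest, was at 135 and 128 CPM against 104 and 108 CPM, with pairs of -0.38, -0.30, -0.33 and -0.25. SESN2, a stress sensor, had pairs of -0.51, -0.32, -0.39 and -0.20, and BBC3 (PUMA), which starts cell death, -0.39, -0.30, -0.30 and -0.21. FAS, a death receptor, was higher, at 0.66, 0.20, 0.75 and 0.29. CDKN1A overlapped between the groups, at 56.2 and 48.6 CPM against 41.9 and 50.4 CPM. MDM2 had pairs of 0.71, 0.03, 0.44 and -0.23. Among 21 genes reported as partners or outputs of mutant p53, 2 were above both controls (9.52%, against 11.8% of all genes) and 0 below. Their pair medians, 0.31, 0.02, 0.23 and -0.03, changed sign, so no direction can be given for this list. PDGFRB, a receptor of mesenchymal cells, was above both, at 21.3 and 22.0 CPM against 26.4 and 29.3 CPM.

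More mitotic genes lay above the controls than below. Of 25 tested, 6 were above both controls (24.0%) and 0 below, with a median of 0.12 and pair medians of 0.29, 0.08, 0.16 and 0.02. The median GC content of their transcripts was 43.2%. In the quintile of all genes with 40.6 to 45.0% GC, 16.9% lay above both controls and 5.93% below. CENPA, the histone of the centromere, had pairs of 0.29, 0.36, 0.19 and 0.26, but CENPE, a mitotic motor, ran from 1.15 to -0.23. Of 23 NF-kB targets and chemokines, 3 were above and 6 below (26.1%). IL1B, an inflammatory cytokine, was at 184 and 156 CPM against 129 and 142 CPM, and SOD2, a mitochondrial antioxidant enzyme, at 307 and 344 CPM against 272 and 252 CPM. Of 22 hypoxia genes 2 were above and 5 below (22.7%). NDRG1, induced by low oxygen, was at 502 and 440 CPM against 372 and 375 CPM. In the serine synthesis and ATF4 list of 20 genes, 2 were above and 3 below, CEBPB and SESN2 among them.

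Ribosomal protein genes turned with the control library. Their median log2 ratio was -0.48 and -0.28 against control 1 and 0.06 and 0.28 against control 2, and 1 of 76 (1.32%) lay on one side in all 4 pairs. Oxidative phosphorylation genes gave -0.49 and -0.25 against control 1 and 0.01 and 0.27 against control 2, with 0 of 27 on one side. Integrin and laminin subunits turned the other way, at 0.40 and 0.18 against control 1 and -0.01 and -0.21 against control 2. Between the controls themselves the medians of these 3 lists differed by 0.57, 0.50 and -0.35 (control 1 minus control 2). No direction in the knockout can be given for these lists.

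The difference between the 2 controls followed GC content and length of the transcripts. Of the 194 genes that differed by at least 2-fold, 188 were higher in control 2, with SLC16A7, KIAA0754, VPS13A, NHLRC2 and ZNF292 the largest among those with a mean of at least 20 CPM. VPS13A, a lipid transfer protein, was at 14.4 and 43.8 CPM in controls 1 and 2 and at 42.6 and 23.1 CPM in knockouts 1 and 2. Among genes with a mean of at least 20 CPM, those with the largest ratio toward control 1 were ATP5I, CCDC42B, TMEM258, RPL41 and COX6A1, of which ATP5I alone was past 2-fold. COX6A1, a subunit of cytochrome oxidase, was at 82.6 and 46.6 CPM in the controls and 52.2 and 62.4 CPM in the knockouts. In all 194 genes knockout 1 lay nearer to control 2, and in 193 knockout 2 lay between the controls. Over the 9958 genes with a GENCODE release 29 transcript (94.7% of 10517), the Spearman correlation of the ratio of control 1 to control 2 was 0.68 with GC content and -0.59 with length. These correlations are across genes within the same libraries and describe them only.

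The same axis ran through the knockout comparison. The correlation with GC content was -0.69 for knockout 1 over control 1, -0.15 for knockout 1 over control 2, -0.66 for knockout 2 over control 1 and 0.43 for knockout 2 over control 2. From the lowest to the highest quintile of GC content the share of genes above both controls was 15.8%, 16.9%, 10.7%, 7.53% and 3.92%. The share below both was 1.41%, 5.93%, 11.2%, 16.5% and 18.5%. The background of 11.8% on each side is therefore a mean over genes of unlike GC content. DCN (38.1% GC), LUM (36.3%) and PTGS2 (36.9%) were in the lowest quintile, where the median log2 fold change was 0.15. CEBPB (66.2%) was in the highest quintile, where the median was -0.12, and the collagens had a median GC content of 59.0%. By length, 9 of the 17 collagens were in the longest quintile. The median log2 fold change there was 0.10, with 7.43% of genes above both controls and 6.38% below. CEBPB was in the shortest quintile, where the median was -0.09. The correlation of the log2 fold change was -0.59 with GC content and 0.35 with length. Knockout 1 and control 2 were the pair with the least trend, and their ratio had the lowest SD, 0.165. In that pair DCN, LUM, MARCKS, PTGS2 and CEBPB stood at 0.70, 0.47, 0.49, 0.74 and 0.49. DCN and PTGS2 are among the genes picked for their ratio in every pair, this one included, so these values are a description. The part of GC content and length in any of the values was not tested.

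**Figure D4:**
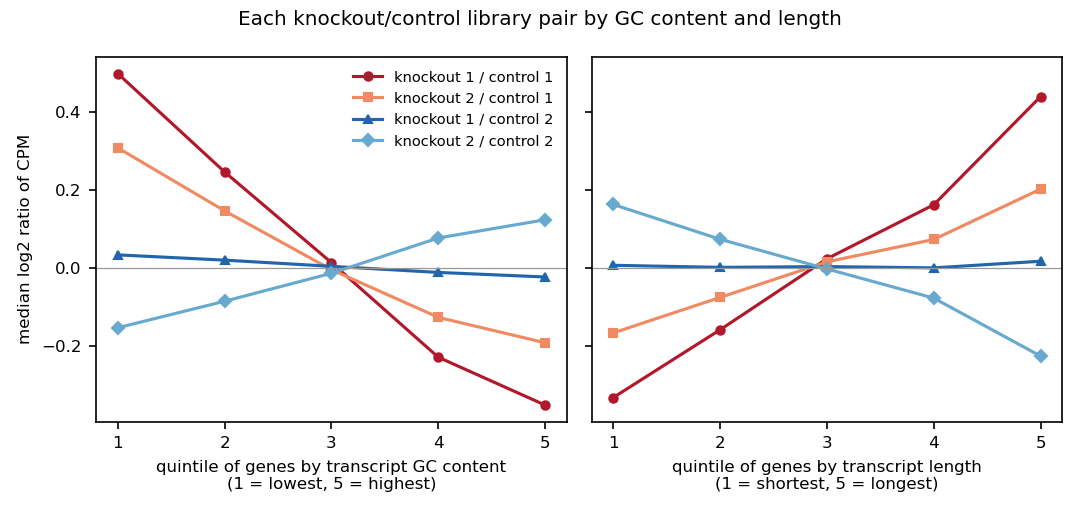
Median log2 ratio of CPM (y axis) by quintile of transcript GC content (left) and of length (right) for the 4 library pairs. Knockout 1 over control 1 runs from 0.50 to -0.35 across GC quintiles, knockout 2 over control 2 from -0.15 to 0.12, and knockout 1 over control 2 stays between 0.03 and -0.02.

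The knockout effect was set beside that of the 2 hairpins in the 12-library fit, in which the arms share no library. Against scramble, the difference between the effects was called for 147 of 13365 genes (1.10%), 86 higher and 61 lower in the knockout. Against vector it was called for 715 genes. Only 57 genes were called with both controls, and 45 of these in the same direction. PCDH18, with a log2 fold change of 1.41 in the knockout and -0.09 in the knockdown, differed by 1.504. Its level in this fit was 2.02 and 2.47 CPM in the knockout control and 33.8 and 34.5 CPM in scramble. IL13RA2 differed by 1.25 (0.82 against -0.42), PDGFD by 1.59 (0.90 against -0.70) and CELF2 by 1.36 (0.89 against -0.47). With vector in place of scramble these 4 kept the sign and the call, at 1.20, 1.64, 1.73 and 1.54. These genes were named for their large knockout ratio, which is part of the difference, so their values are a description. The knockdown value is the mean of both hairpins, which did not act alike on all of them. PCDH18 lay above scramble with shRNA-1 (36.2 and 35.6 CPM) and below it with shRNA-2 (28.5 and 28.8 CPM). PDGFD was at 7.92 and 6.06 CPM in scramble, 6.29 and 5.46 CPM with shRNA-1 and 2.86 and 3.39 CPM with shRNA-2. IL13RA2 was also lowest with shRNA-2 (7.77 and 7.85 CPM), and CELF2 was below scramble with both hairpins. DCN and MARCKS had log2 fold changes of 0.69 and 0.64 in the knockout and of 0.39 and 0.40 for the mean of both hairpins over scramble, and their differences were not called (edgeR adjusted p 0.239 and 0.406). For DCN the hairpins lay on opposite sides of scramble: the level was 305 and 295 CPM in scramble, 286 and 281 CPM with shRNA-1 and 538 and 559 CPM with shRNA-2. MARCKS was above scramble with both hairpins, at 746 and 737 CPM in scramble, 1035 and 1034 CPM with shRNA-1 and 907 and 947 CPM with shRNA-2. Against vector the knockdown value of DCN was 2.61 and that of MARCKS -0.03, and both differences were called, at -1.92 and 0.66. The DCN level in vector was 66.3 and 62.5 CPM.

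The arms also differed in level before any p53 contrast. FN1 was at 18206 and 19154 CPM in scramble, MMP3 at 1.21 and 1.497 CPM and SERPINB2 at 14.5 and 16.6 CPM. The construct, doxycycline and the arm cannot be told apart in these levels.

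**Figure D5:**
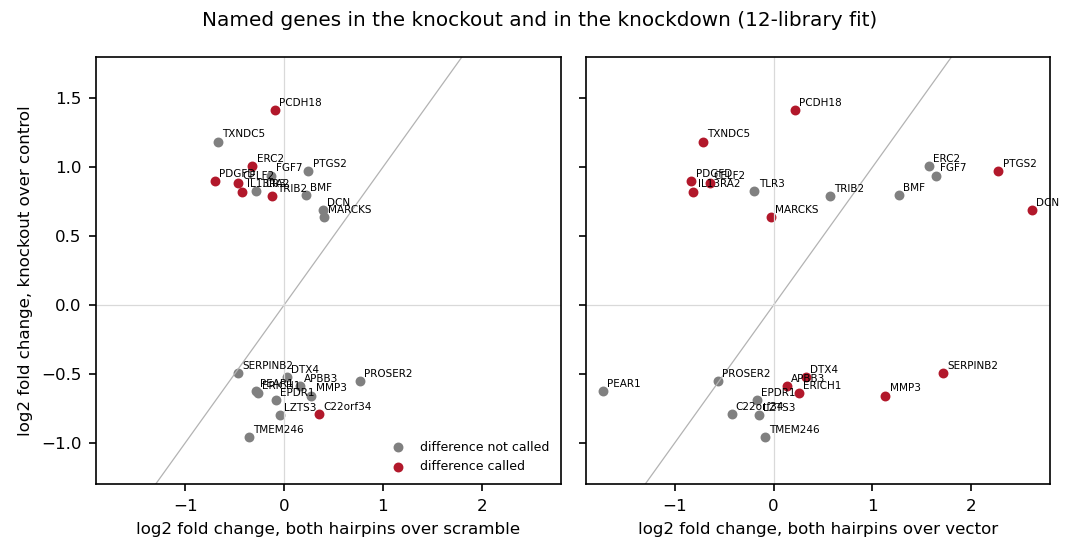
Log2 fold change of the knockout (y axis) against the mean of both hairpins over scramble (left) and over vector (right) for the named genes, with the line of equal change. Red points have a called difference; PCDH18, IL13RA2, PDGFD and CELF2 are red on both sides, while DCN is at 0.39 over scramble, a mean of hairpins that lie on opposite sides of it, and at 2.61 over vector.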

How the data were processed

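RNA was sequenced from 4 libraries of the LMSU line, and 8 further libraries entered only the 12-library fit. The authors deposited raw counts per gene symbol, with no normalisation. The submitters' processing notes list bcl2fastq, STAR 2.5 and hg19. How reads were counted, the strand setting and the annotation: not given in the sources used here. Therefore overlapping genes on opposite strands cannot be separated. Per the labels' protocols, libraries came from 100 ng of total RNA with an mRNA kit.

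Of 25435 symbols, filterByExpr (minimum count 10) kept 12776 over the 4 libraries and 13365 over 12. Library sizes were scaled by TMM, and groups were compared in R 4.3.3 with edgeR 4.0.16's quasi-likelihood F test, two-sided, with Benjamini-Hochberg adjustment over all genes tested and calls below 0.05. Residual degrees of freedom were 2 and 6. Pair ratios used log2 CPM with a prior count of 2. GC content and length are those of the longest GENCODE 29 transcript, a build other than hg19. Alternatives used DESeq2 1.42.0 and limma 3.58.1, other scalings and filters, replicate blocks and leaving out each library. Figures were drawn with matplotlib 3.10.9. The procedure was tested on simulated counts in which both controls shared the same mean per gene. The simulation therefore did not include the difference between the controls by GC content and length.

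The members and gene lists were chosen with earlier results of these data known. The rule named DCN and MARCKS, then the 12 genes in each direction with the largest smallest pair among those with at least 5 CPM in the higher group and no overlap, without names of clones, pseudogenes, antisense or small RNAs. It also named up to 4 members of each list by unadjusted p, the 5 genes in each direction that differed most between the controls (at least 20 CPM), and genes called by the 12-library fit. MARCKSL1, MDM2, PDGFRA and COL1A1 are named outside the rule, after their values were seen. The level of the targeted gene, and a few genes chosen by the rule, are not reported here. Of 856 genes in 42 lists, 855 matched a symbol (2 through another symbol).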

Additional observations from a re-analysis of the deposited data

Results flagged for a closer look

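For 14 of the named genes the difference between the knockout effect and the knockdown effect against scramble was called by edgeR over 12 libraries. Many of these genes were named for their knockout ratio, which is part of the difference. The knockdown effect is the mean of both hairpins, which lay on opposite sides of scramble for PCDH18, TRIB2 and WWTR1. The knockout effect exceeded the knockdown effect, on the log2 scale, for POSTN by 1.63, PDGFD by 1.59, PCDH18 by 1.504, CELF2 by 1.36, ERC2 by 1.33, IL13RA2 by 1.25, TRIB2 by 0.91, WWTR1 by 0.67 and COL5A2 by 0.52. It was lower for P4HA1 (-1.41), C22orf34 (-1.15), NDRG1 (-0.95), PKP3 (-0.90) and SESN2 (-0.82). With vector in place of scramble the value was still called for PCDH18, IL13RA2, PDGFD and CELF2. P4HA1 and NDRG1 then had the opposite sign and were called, at 0.49 and 0.55. The remaining 8 were not called against vector, and ERC2 among them changed sign, to -0.57.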

How the results depend on the processing

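The 4-library edgeR test called 0 genes, and also 0 with RLE, upper-quartile or total-count scaling, a floor of 5 CPM, limma-voom or a threshold of 0.10. It called 2 with no filter, 2 with DESeq2 and 2 in the 12-library fit. Leaving out 1 library gave 1 to 4135 calls: without control 2, 993 over 4 libraries and 4135 over 12, and without control 1, 3 and 17. The group left with 1 library is assumed to vary like the others. Without control 2, DCN (adjusted p 0.0212), MARCKS (0.000661) and LUM (0.00941) were called by edgeR, and without control 1 they were not (0.411, 1 and 1).

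The labels give the groups the same replicate numbers, but do not say that a number marks a shared culture or day, and same-numbered libraries deviated in opposite directions over genes (correlation -0.78). A replicate block called 2 genes over 4 libraries and 1 over 12, and 60 for the difference from the knockdown. A crossed pairing, added after seeing the data, called 72 genes over 4 libraries and 624 over 12.

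Genes past 1.5-fold in all pairs (36 higher, 22 lower) became 4 and 2 at 2-fold and 7 and 2 with a mean of at least 5 CPM. Leaving out a library leaves 2 pairs and gave 77 to 485 higher and 88 to 150 lower, the most without control 2. The 147 genes of the difference from the knockdown became 715 with vector, 705 without control 1, 3342 without control 2, 34 without knockout 1 and 54 without knockout 2. Leaving out each library in turn changed the sign of 9 log2 fold changes, which ranged from -0.088 to 0.589 for PLOD2, -0.644 to 0.024 for CLDN7, -0.321 to 0.025 for CALM3, -0.064 to 0.516 for CDKN1C, -0.429 to 0.053 for RPL29, -0.438 to 0.075 for RPL7, -0.544 to 0.137 for FAU, -0.648 to 0.103 for NDUFB7 and -0.524 to 0.068 for NDUFA2; the sign turned without control 1 for all of them but CDKN1C, which turned without control 2. The cause was not tested.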
